A study of Rattus norvegicus with 3 samples.

Results

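Liver RNA of 3-month-old male spontaneously hypertensive rats (SHR) was set against pooled liver RNA of age-matched male Wistar Kyoto rats (WKY) on 1 spotted array read in 2 colours. This was 1 of the 3 arrays of the study, and it was chosen because its file headers name WKY and SHR of 3 months as the channels. The others compared SHR with a WKY pool at 1 month, and SHR of both ages with each other. Per the labels, SHR cDNA carried the dye Alexa647 and WKY cDNA the dye Alexa555. There was no replicate array and no dye swap, so no p-value was computed, and a preference of a probe for either dye cannot be told apart from a difference between the strains. The labels do not say how many rats each RNA came from. The WKY tissue was pooled, and neither strain is described as treated. Whole liver was used, so that fewer cells of a type and less RNA per cell cannot be told apart.

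SHR is an inbred strain derived from WKY stock. Its blood pressure climbs through adolescence and is clearly raised in the young adult, so that this comparison addresses the liver once hypertension is established. The liver makes most plasma proteins, angiotensinogen among them, handles lipids, amino acids and steroid hormones, and responds to growth hormone through the kinase JAK2 and the transcription factor STAT5. SHR is also widely used as a model of insulin resistance and disturbed lipid handling.

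The array held 12288 spots, of which 894 were empty or unnamed, and most probes were printed on 2 neighbouring spots. Local background was more than 2 times the channel median on 985 spots (8.02%), against 46 spots on the 1-month array and 0 on the array that compared the ages. These spots lay mainly in a pair of neighbouring subgrids, with 320 and 252 of 384 spots, and they were left out. Of 5654 genes on the array, 5192 were measured in both channels, 4052 of them with a gene symbol. Another 462 were not measured, 367 of them only because of bright background, so the absence of a gene from the results below is no result. Median raw intensity was 2162 in the SHR channel and 3460 in the WKY channel. The SD between spots of a probe was 0.060 on the log2 scale, which covers the printing and scanning of this array and not the spread between rats. All 11 hepatocyte markers, Alb, Tf, Ttr and Apob among them, were present in both channels. Markers of muscle (4 of 4) and brain (4 of 4) passed the same presence criterion, so presence on this array does not separate tissues.

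Ratios are log2 of SHR over WKY after normalization within the array, so that 0 is the ratio of a typical gene of the same brightness. Before that step the median log2 ratio was -0.585. By log2 intensity it was -0.356 under 8 and -0.949 between 8 and 9, and rose from there to 0.391 at 15 or more. The values below are relative to that trend. Few genes lay far from 0: the central 95% ran from -0.68 to 0.46, with an SD over genes of 0.28 and a median of -0.014. A gene was counted when its normalised intensities were at least 1.5-fold apart. In SHR 42 of 5192 genes were higher by this measure (0.809%) and 199 were lower (3.83%), 4.64% in all. At 2-fold, 2 genes were higher in SHR (0.0385%) and 20 were lower (0.385%). The growth hormone target Cish and the folate enzyme Aldh1l1 were the 2 higher ones, and the uncoupling protein Ucp1, the receptor subunit Gabra3, albumin (Alb) and the pyruvate carrier Mpc1 were among the lower.

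**Figure D1:**
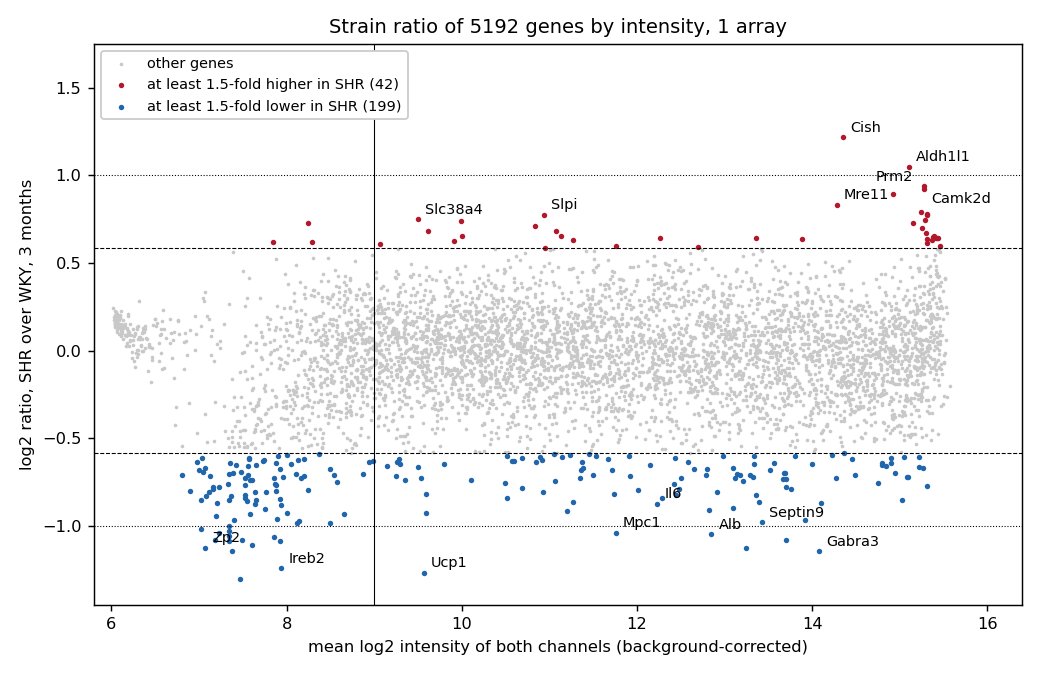
Log2 ratio of SHR over WKY at 3 months (vertical axis) against the mean log2 intensity of both channels (horizontal axis) for the 5192 genes measured on the 1 array. Each point is a gene, dashed lines mark 1.5-fold and dotted lines 2-fold, and the vertical line marks a log2 intensity of 9. The 42 higher genes gather at the bright end, and 91 of the 199 lower genes lie left of the line.

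The lower genes were spread unevenly over brightness. Among 923 genes with a mean log2 intensity under 9, called dim here, 91 were 1.5-fold lower in SHR (9.86%) and 3 higher (0.325%). Between 9 and 14, 85 of 3203 were lower (2.65%) and 17 higher (0.531%). At 14 or more, 23 of 1066 were lower (2.16%) and 22 higher (2.06%), and 19 of the 42 higher genes lay at 15 or more. The lower calls also depended on how background was modelled. When the bright-background spots entered the background model, 0 of the 91 dim genes and 81 of the other 108 were still 1.5-fold lower. This holds for every dim lower gene below, each of which is named as dim, and the 20 highest and 20 lowest genes were taken from those with a log2 intensity of 9 or more and both spots kept.

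Cish encodes a suppressor of cytokine signalling that STAT5 induces after growth hormone or prolactin and that in turn restrains the receptor. Both spots of its probe gave 32571 and 31221 normalised intensity units in SHR, against 14072 and 13352 in WKY. That is 2.33-fold higher in SHR (log2 ratio 1.22), the highest ratio among the 5192 genes, and the spots of the strains did not overlap. Under the 12 alternative ways of processing, its ratio stayed between 1.18 and 1.69. At 1 month, in the RNA of younger rats on another array of the same dye order, it was 0.84. The 250 bases before its RefSeq start site (GRCr8, chr8:116850719-116850968, plus strand) are shown because they carry the letters TTCNNNGAA, the core to which STAT5 is known to bind, as 4 matches in capitals. The motif reads the same on both strands, and no match overlapped another.
Cish: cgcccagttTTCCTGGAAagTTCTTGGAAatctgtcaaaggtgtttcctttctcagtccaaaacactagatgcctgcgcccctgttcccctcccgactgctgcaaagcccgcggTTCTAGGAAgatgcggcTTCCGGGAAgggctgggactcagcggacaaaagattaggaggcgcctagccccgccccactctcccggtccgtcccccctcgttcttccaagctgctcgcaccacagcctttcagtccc
The matches began at bases -241, -230, -136 and -119 from the start site. Of 33469 RefSeq promoters of the same length, 7.67% held at least 1 match and 2 promoters (0.00598%) held 4 or more. Among measured genes with a promoter in the table, 2 of 26 that were 1.5-fold higher in SHR held the motif (Trim23 and Cish), against 5 of 101 lower genes and 198 of 3110 of all (6.37%). A match describes letters and shows no binding.

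The other genes of the pathway did not share the size of the Cish ratio. Of 34 growth hormone, JAK2 and STAT5 genes listed, 22 were measured and 15 of these were above 0, with a median of 0.12 beside -0.014 for all genes. The median was -0.024 with median centring in place of loess. Besides Cish, none was 1.5-fold higher in SHR (background 0.809%) and 1, Jak2, was 1.5-fold lower (background 3.83%). Jak2, the kinase of the receptor, gave 7988 and 8020 in SHR, against 13384 and 12972 in WKY (log2 ratio -0.72), and stood at -0.18 at 1 month. Jak2 was past 1.5-fold under 9 of 12 alternatives, at -0.47 in the authors' log2 values. The transcription factor Stat5a was 0.25 and the growth hormone receptor Ghr 0.24, while the prolactin receptor Prlr was -0.42. The growth factor Igf2, on a dim probe, was 0.32 and the receptor Igf1r -0.17. The pathway thus held the highest gene of the array, with most other members near 0. Promoters of 18 of the 22 genes were in the RefSeq table, and Cish and Socs1 were the 2 that held the motif.

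**Figure D2:**
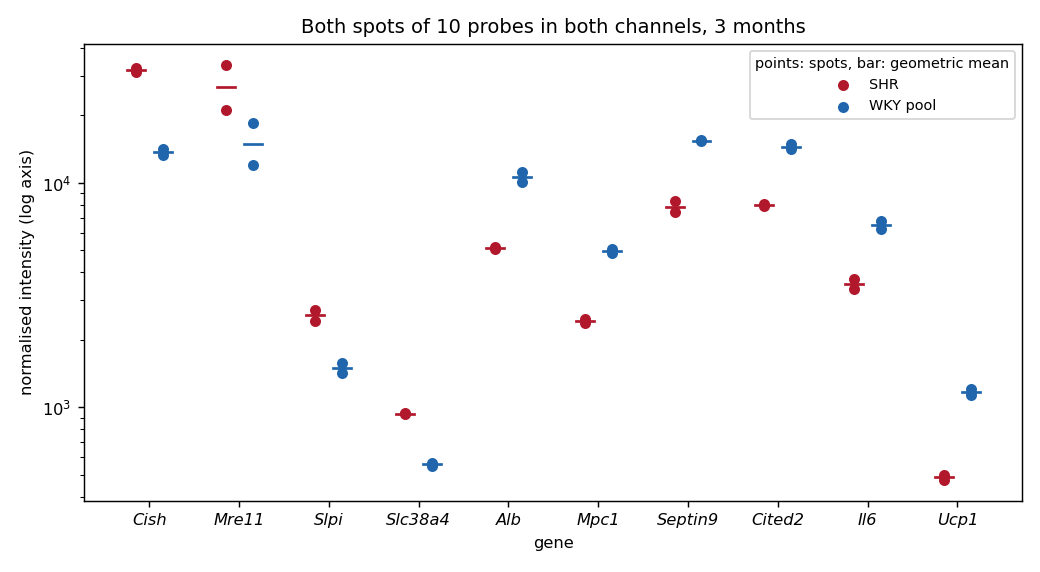
Normalised intensity (log axis) of both spots of 10 probes on the 3-month array, SHR in red on the left and the WKY pool in blue on the right of each gene, with bars at the geometric mean. Spots of the strains do not overlap for any gene shown, and they lie closest for Mre11, with 21059 and 33550 in SHR and 12047 and 18473 in WKY. Both channels are read from the same spot, and the log2 ratios of the Mre11 spots differed by 0.055.

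Albumin, the main protein of plasma and a product of hepatocytes, was lower in SHR by its probe. Mean log2 intensity of the probe was 12.85, below the 1066 genes at 14 or more, Prm2 (15.28) and Gabra3 (14.08) among them. Whether the probe reads albumin RNA alone was not tested. Its spots gave 5188 and 5064 in SHR, against 10092 and 11133 in WKY, which is 2.07-fold lower (log2 ratio -1.05). The 12 alternatives gave -1.05 to -0.92. At 1 month the ratio was -0.15. The 250 bases before its RefSeq start site (GRCr8, chr14:17906980-17907229, minus strand) are shown because this promoter is a textbook target of the liver factor HNF1. Capitals mark its 1 match to GTTAAT, one arm of the HNF1 site, searched on both strands, at base -82. It had no overlap with another match.
Alb: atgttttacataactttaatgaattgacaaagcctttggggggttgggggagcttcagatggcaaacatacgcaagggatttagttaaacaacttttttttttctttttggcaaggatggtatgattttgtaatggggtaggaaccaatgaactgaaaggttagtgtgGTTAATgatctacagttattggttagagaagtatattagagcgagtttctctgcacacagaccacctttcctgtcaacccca
The same letters were found in 6.45% of the 33469 promoters.

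Other plasma proteins did not follow albumin to that extent. Of 35 hepatocyte plasma proteins listed, 25 were measured, 8 lay above 0 and the median was -0.15, between -0.15 and -0.10 under every alternative. None was 1.5-fold higher in SHR and 2 were lower, beside 0.809% and 3.83% of all genes. The 2 were Alb and the dim Hrg, a histidine-rich glycoprotein (-0.70, with -0.64 at 1 month). The protease inhibitor Serpina1 was -0.31 and transferrin (Tf) -0.30, whereas the high-density lipoprotein protein Apoa1 was 0.21 and the vitamin D carrier Gc 0.20. Serpina1 had the larger gap at 1 month, -0.71. Over the 11 hepatocyte markers the median was -0.093, and their summed intensity was 65251 in SHR and 71929 in WKY. Albumin was thus the 1 hepatocyte marker that was 1.5-fold apart. Of 26 acute phase genes 1 was 1.5-fold lower in SHR, the interleukin receptor Il1r1 (-0.65, but 0.048 with median centring), and Cebpb, a factor that drives acute phase genes, was 0.34. Coagulation (20 measured) and complement (14 measured) held no gene 1.5-fold apart.

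The mitochondrial pyruvate carrier subunit Mpc1 gave 2462 and 2367 in SHR, against 5074 and 4847 in WKY (2.05-fold lower, log2 ratio -1.04, alternatives -1.08 to -0.95). It was -0.15 at 1 month. Idh3g, a regulatory subunit of the NAD-linked isocitrate dehydrogenase of the tricarboxylic acid cycle, gave 522 and 645 in SHR, against 915 and 1144 in WKY (log2 ratio -0.82, past 1.5-fold under 10 of 12 alternatives). The partner subunit Idh3b, which is dim, was -0.55 and the catalytic subunit Idh3a 0.04, so the subunits of the enzyme had unlike ratios. The cycle's list held 20 measured genes of 34, with a median of -0.052, 0 of them 1.5-fold higher and 2 lower, beside 0.809% and 3.83% of all genes. Among 24 measured genes of the respiratory chain and ATP synthase none was 1.5-fold apart and the median was 0.035. Glycolysis and gluconeogenesis (36 measured) likewise held no gene 1.5-fold apart.

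Ucp1, the uncoupling protein known from brown fat, had the lowest ratio of the genes that were not dim. What its probe detects in liver was not tested. Its spots gave 475 and 502 in SHR, against 1139 and 1210 in WKY (2.41-fold lower, log2 ratio -1.27), and the alternatives ranged from -1.51 to -0.85. At 1 month it was -0.02. The related carriers Ucp2 and Ucp3 were -0.43 and -0.40, and Ucp3 was 0.48 with median centring. Otherwise the 33 measured genes of fatty acid oxidation had a median of -0.024 and no member 1.5-fold apart. Of these, the transcriptional coactivator Ppargc1a was 0.35 and the peroxisomal oxidase Acox2 0.36. Fatty acid and triglyceride synthesis (19 measured) had no gene 1.5-fold apart. The desaturases Scd and Scd2, the latter dim, were -0.56 and -0.47, beside -0.53 and -0.65 at 1 month. The alternatives for Scd2 ran from -0.66 to -0.15. Cholesterol synthesis (17 measured) held no gene 1.5-fold apart either. Dhcr7 and Lss, which act late in the route, were -0.50 and -0.48.

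Enzymes of amino acid breakdown were found on both sides. Of 55 measured genes of amino acid, urea and one-carbon metabolism, 1 was 1.5-fold higher in SHR and 3 lower, with a median of -0.034. Over all genes 0.809% were higher and 3.83% lower. Aldh1l1, which oxidises formyl-tetrahydrofolate, was 2.07-fold higher in SHR, but 1 of its spots was lost to background. The remaining spot read 50584 in SHR, against 24453 in WKY (log2 ratio 1.05), and the ratio at 1 month was 0.56. Among the lower genes, Hibadh of valine breakdown gave 620 and 533 in SHR, against 927 and 897 in WKY (log2 ratio -0.67, past 1.5-fold under 9 of 12 alternatives), and was -0.33 at 1 month. Kynu of the kynurenine route, a dim probe, was -1.04 beside -1.13 at 1 month. Tyrosine aminotransferase (Tat) was 0.42.

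Drug-metabolising enzymes were mostly near 0. Of 39 measured cytochrome P450 and related genes 0 were 1.5-fold higher and 2 lower in SHR, with a median of -0.027. Over all genes these shares were 0.809% and 3.83%. Cyp2c7, a female-biased hepatic P450 in rats, gave 1027 and 1189 in SHR, against 1730 and 2016 in WKY (log2 ratio -0.76). It was 1.5-fold lower under all 12 alternatives and stood at -0.71 at 1 month. On the array of both SHR ages, which carried no WKY RNA, it was -0.76 in the headers' direction, which is not settled. Cyp1a1, the classic target of the aryl hydrocarbon receptor, was 2.0-fold lower in SHR, but its probe was dim at 115 and 114 in SHR, against 231 and 226 in WKY. Cyp2d4 was at the upper end with 0.47. The 26 measured conjugation enzymes had a median of -0.14 and no member 1.5-fold apart. Of these, Gstp1 was 0.48 on its brighter probe and -0.013 on another probe of nearly the same brightness, so the gene has no settled value here.

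Many liver genes differ between the sexes under the pattern of growth hormone release. Of 18 measured female-biased genes, 2 were 1.5-fold lower in SHR, beside 3.83% of all genes, and the median was -0.14. They were Cyp2c7 and the peroxisomal hydroxyacid oxidase Hao2 (-0.62, but -0.10 with median centring). Of 13 measured male-biased genes none was 1.5-fold apart and the median was -0.077. All rats were male, so this compares male SHR with male WKY only. Nuclear receptors (31 measured) held no gene 1.5-fold apart, and the liver X receptor Nr1h3 was highest with 0.49.

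Amino acid and organic ion transporters of the cell membrane included genes on both sides. Slc38a4, a neutral amino acid carrier abundant in liver, gave 935 and 939 in SHR, against 549 and 565 in WKY (1.68-fold higher, log2 ratio 0.75). It was past 1.5-fold under 9 of 12 alternatives and had 0.73 at 1 month. Slc7a8, the light chain of an exchanger of large neutral amino acids, gave 6172 and 6624 in SHR, against 11504 and 12362 in WKY (log2 ratio -0.90), and was 0.099 at 1 month. These were the 2 of 30 measured amino acid transporters that were 1.5-fold apart, beside 4.64% of all genes. Among 33 organic anion and cation transporters 2 were 1.5-fold lower, beside 3.83% of all genes. They were Slc22a25 (-0.77) and the cation carrier Slc22a2 (-0.66). With median centring both lost that direction, at 0.21 and 0.064. The anion carrier Slc22a7 gave 3488 and 3642 in SHR, against 2337 and 2463 in WKY, just inside 1.5-fold (log2 ratio 0.57).

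**Figure D3:**
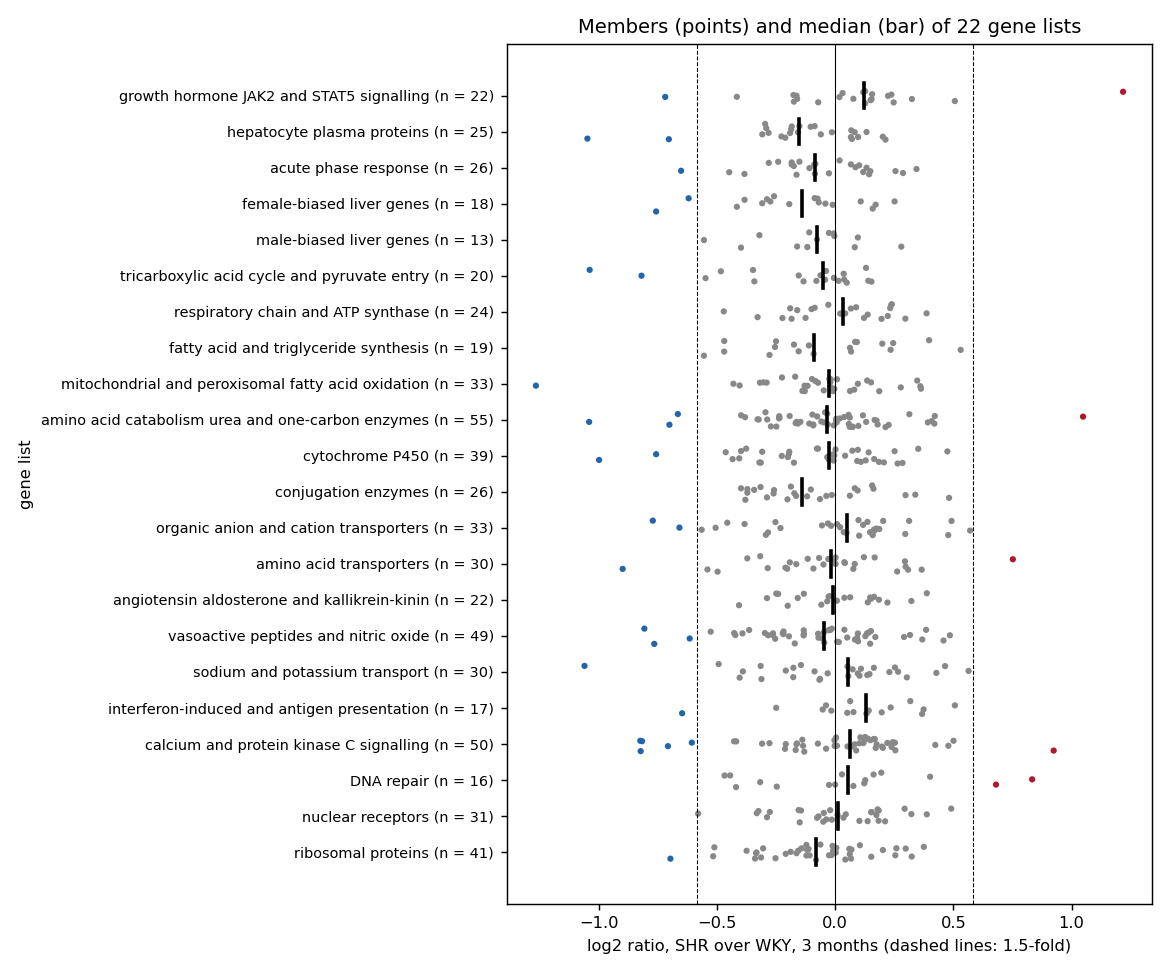
Log2 ratio of SHR over WKY at 3 months (horizontal axis) for the measured members of 22 gene lists (rows). Points are genes, red where 1.5-fold higher and blue where 1.5-fold lower in SHR, and black bars are list medians. The medians lie between -0.15 and 0.13, while single members such as Cish, Aldh1l1, Ucp1 and Alb lie past 1.

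Genes that set blood pressure through angiotensin, aldosterone and kinins showed no gene 1.5-fold apart. Of 34 listed, 22 were measured, with a median of -0.0077. Over all genes 4.64% were 1.5-fold apart. Angiotensinogen (Agt), the liver's own contribution to this system, was -0.03, and the receptors Agtr1a and Agtr2 were 0.01 and 0.06. The glucocorticoid receptor Nr3c1 was 0.39 and the mineralocorticoid receptor Nr3c2 was 0.32. At 1 month Nr3c1 and Nr3c2 were 0.25 and 0.31.

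Of 49 measured genes of vasoactive peptides, prostanoids, catecholamine receptors and nitric oxide, 0 were 1.5-fold higher and 3 lower in SHR. Over all genes these shares were 0.809% and 3.83%, and the list median was -0.048. The prostaglandin receptor Ptger2 (-0.81) and the calcitonin-like receptor Calcrl (-0.77) were dim and had -0.96 each at 1 month. Adra2b, an adrenergic receptor, gave 2451 and 2842 in SHR, against 3717 and 4400 in WKY (log2 ratio -0.62). It was past 1.5-fold under 8 of 12 alternatives and -0.27 with loess per subgrid. At the other end the vasodilator peptide adrenomedullin (Adm) was 0.49 and Ddah1, which clears an inhibitor of nitric oxide synthase, 0.46. Endothelin-1 (Edn1) was 0.13 and its receptor Ednrb 0.14. The list as a whole ran from -0.81 to 0.49.

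Sodium and potassium transport had 30 measured genes, a median of 0.054 and 1 gene 1.5-fold lower, beside 3.83% of all genes. This was the dim bicarbonate cotransporter Slc4a7 (-1.06, with -0.89 at 1 month). The adducin genes, whose products bind the membrane skeleton, were -0.32 for Add1, -0.49 for Add2 and -0.40 for Add3, though Add1 was 0.76 and Add2 0.38 with median centring. Of 7 measured genes with SHR alleles reported elsewhere none was 1.5-fold apart. The fatty acid carrier Cd36 was -0.20 and the folate receptor Folr1 -0.47, both on dim probes.

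Genes of inflammation lay on both sides. Interleukin-6 (Il6), an inducer of the hepatic acute phase, gave 3744 and 3368 in SHR, against 6761 and 6256 in WKY (1.83-fold lower, log2 ratio -0.87). The ratio was 0.042 at 1 month. Slpi, a secreted inhibitor of neutrophil proteases, gave 2719 and 2424 in SHR, against 1579 and 1426 in WKY (1.71-fold higher, log2 ratio 0.77), and was 0.062 at 1 month. For both genes the spots of the strains did not overlap, and both kept their side of 1.5-fold under all 12 alternatives. Among 43 measured cytokines 1 was higher and 3 lower, beside 0.809% and 3.83% of all genes, the activin-like subunit Inhbc being higher (0.64) and its dim relative Inhbe (-0.76) and Il1a (-0.60, past 1.5-fold under 9 of 12 alternatives) lower with Il6. Of 33 measured cytokine receptors 0 were higher and 3 lower, the dim Tnfrsf11b (-0.72) and Il13ra2 (-0.70) and the interleukin-1 receptor Il1r1. The beta-defensin Defb1 was -0.79 and the nucleic acid sensor Zbp1 0.68, past 1.5-fold under 10 and 9 of 12 alternatives. Interferon-induced and antigen presentation genes (17 measured) had a median of 0.13, with the immunoproteasome subunit Psmb8 at 0.32 and Ifit1, an interferon-induced RNA-binding protein, at -0.65 (past 1.5-fold under 8 of 12).

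None of the measured defining markers of other liver cell types was 1.5-fold apart. The 3 Kupffer cell markers on the array, Clec4f, Cd14 and C1qb, ranged from -0.45 to -0.15 with a summed intensity of 27548 in SHR and 33629 in WKY. The 4 measured lymphocyte markers summed to 7938 in SHR and 7997 in WKY, and the 2 endothelial ones to 34073 in SHR and 32600 in WKY. The 5 measured stellate cell markers summed to 22308 in SHR and 24166 in WKY. Within them Rgs5 was 0.46 and desmin (Des) -0.43. No cholangiocyte marker was measured. Lyz2, on the wider macrophage list, was 0.46. Each of the wider lymphocyte, endothelial and cholangiocyte lists had 1 gene 1.5-fold lower and 0 higher, beside 3.83% and 0.809% of all genes. These were the dim Klrk1 (-0.96) of 24 lymphocyte genes, the dim Icam1 (-0.70) of 10 endothelial and Anxa2 (-0.82) of 9 cholangiocyte genes. The part of these markers in the other results was not tested. Of 53 measured stellate cell and matrix genes 2 were 1.5-fold lower, beside 3.83% of all genes. They were the protease Mmp9 (-0.74, past 1.5-fold under 10 of 12 alternatives) and the dim protease inhibitor Timp2 (-1.02).

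Calcium and protein kinase C signalling held 6 genes 1.5-fold apart among 50 measured, 1 higher and 5 lower, beside 0.809% and 3.83% of all genes, with a median of 0.062. Camk2d, a calcium and calmodulin dependent kinase, gave 54451 and 54605 in SHR, against 28581 and 28879 in WKY (log2 ratio 0.92), and was 0.63 at 1 month. Anxa2, a calcium-dependent membrane binder, gave 2625 and 2520 in SHR, against 4476 and 4589 in WKY (log2 ratio -0.82), and was 0.25 at 1 month. The exchanger Slc24a2 was also -0.82 with 0.23 at 1 month, and the kinase Prkcb, on 1 kept spot, was -0.82 with 0.092. Prkci (-0.71) and Anxa6 (-0.61) were the remaining lower members.

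Septin9, a filament-forming GTPase of the cytoskeleton, gave 7401 and 8266 in SHR, against 15383 and 15445 in WKY (1.97-fold lower, log2 ratio -0.98). It was -0.11 at 1 month. The actin-binding thymosin Tmsb10 was -0.93, with a dim probe whose spots differed by 0.40, while its relative Tmsb4x was 0.31. The dynein light chain Dynlrb1 was -0.87, while the dynein heavy chain Dync1h1 was 0.65 with both spots saturated in the SHR channel. Of 27 measured cytoskeletal genes 1 was 1.5-fold higher and 2 lower, beside 0.809% and 3.83% of all genes.

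Among regulators of transcription, Cited2, which binds the coactivators CBP and p300, gave 7902 and 8042 in SHR, against 14835 and 14147 in WKY (1.82-fold lower, log2 ratio -0.86). Ep300, which encodes p300 itself, was -0.73 (past 1.5-fold under 10 of 12 alternatives), and was 0.23 at 1 month. These were the 2 of 44 measured liver transcription factors and coregulators that were 1.5-fold apart, both lower, beside 3.83% of all genes. The list median was 0.034. Of those 44, the related Cited1 was 0.45, and the liver factor Foxa3 0.42. The histone deacetylase Hdac2, outside that list, was 0.73, and the salt-inducible kinase Sik1, which holds CREB coactivators in the cytoplasm, was 0.74 beside 0.071 at 1 month (past 1.5-fold under 9 of 12 alternatives). Of 14 measured clock genes Per3 was 1.5-fold lower (-0.60, past 1.5-fold under 8 of 12 alternatives).

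DNA repair held 2 genes 1.5-fold higher among 16 measured and none lower, beside 0.809% and 3.83% of all genes. The median was 0.053, but -0.042 with loess per subgrid. Mre11 and Nbn, a pair of subunits of the complex that senses double-strand breaks, were 0.83 and 0.68. The partner subunit Rad50 was -0.25. Nbn gave 2768 and 2677 in SHR, against 1733 and 1664 in WKY, without overlap, and was past 1.5-fold under 9 of 12 alternatives. Mre11 gave 21059 and 33550 in SHR, against 12047 and 18473 in WKY. Its spots differed more in intensity, but their log2 ratios, each read within 1 spot, differed by only 0.055. At 1 month the ratios were 0.61 for Mre11 and 0.31 for Nbn.

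For basic cell machinery, the counts stand beside 0.809% of all genes 1.5-fold higher and 3.83% lower. Of 41 measured ribosomal protein genes 1 was 1.5-fold lower, Rpl15 (-0.70), and of 30 proteasome and ubiquitin genes 1 was higher, Psmc3 (0.61). They were past 1.5-fold under 9 and 8 of 12 alternatives. Splicing and RNA-binding genes (20 measured) had 3 lower, the dim Casc3 (-1.11) and Khdrbs1 (-0.59), and Hnrnpm (-0.72), which was 0.14 with median centring. Of 36 antioxidant genes the superoxide dismutase Sod1 was 0.60 with both spots saturated in the SHR channel, and Msra, which repairs oxidised methionine, was -0.73 (-0.29 with median centring). Heat shock proteins (24 measured), insulin signalling (22) and MAP kinase signalling (39) held no gene 1.5-fold apart.

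Of the 20 highest genes, 11 had a log2 intensity of 15 or more, where the SHR channel nears the scanner's ceiling. Their raw intensities lay between 51212 and 65410 in SHR, against 24764 and 30344 in WKY. They include Prm2, a sperm protamine (0.94), Camk2d, the ubiquitin ligase Trim23 (0.78), the glycine receptor subunit Glra2 (0.77), the endothelial adhesion receptor Adgrl4 (0.75), Hdac2 and the secreted phospholipase Pla2g5 (0.70). Prm2 is a germ cell gene and Glra2 a neuronal one, and 20 testis and 50 brain genes measured had list medians of -0.23 and -0.097. What such probes detect in liver was not tested. The remaining 9 of the 20 were Cish, Mre11, Slpi, Slc38a4, Sik1, the zinc finger gene Zfp423 (0.71), Zbp1, Nbn and LOC246147, named cathepsin Q in the file (0.66). Under median centring the ratios of the brightest genes were larger, up to 1.90 for Prm2 among these 20.

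The 20 lowest genes were spread over log2 intensities of 9.56 to 15.02. Gabra3, a subunit of the GABA-A receptor, gave 12127 and 11120 in SHR, against 27727 and 23754 in WKY (2.21-fold lower, log2 ratio -1.14), and was -0.44 at 1 month. The phosphatase Ptp4a2 was -0.91, the synaptic scaffold partner Cript -0.93, the kinase of primary cilia Cilk1 -0.87, the oligodendrocyte factor Olig1 -0.84 and the serotonin receptor Htr7 -0.81. What the probes of Gabra3, Olig1 and Htr7 detect in liver was not tested either. Of the 40 highest and lowest genes, 27 were 1.5-fold apart the same way under all 12 alternatives, 11 of the highest and 16 of the lowest. The dim lowest were LOC207126 (-1.30), Ireb2 (-1.24, on 1 spot), Zp2 (-1.12), Casc3, Pdap1 and Cdc20 (both -1.09). Their alternatives reached as high as -0.16 for Zp2 and -0.20 for Cdc20, so their size varied with the processing. The dim highest were Psmd10 (0.62), Kcnj1 (0.56), Aldoc (0.55), Elovl5 (0.53), Htt (0.52) and Lamp1 (0.49).

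**Figure D4:**
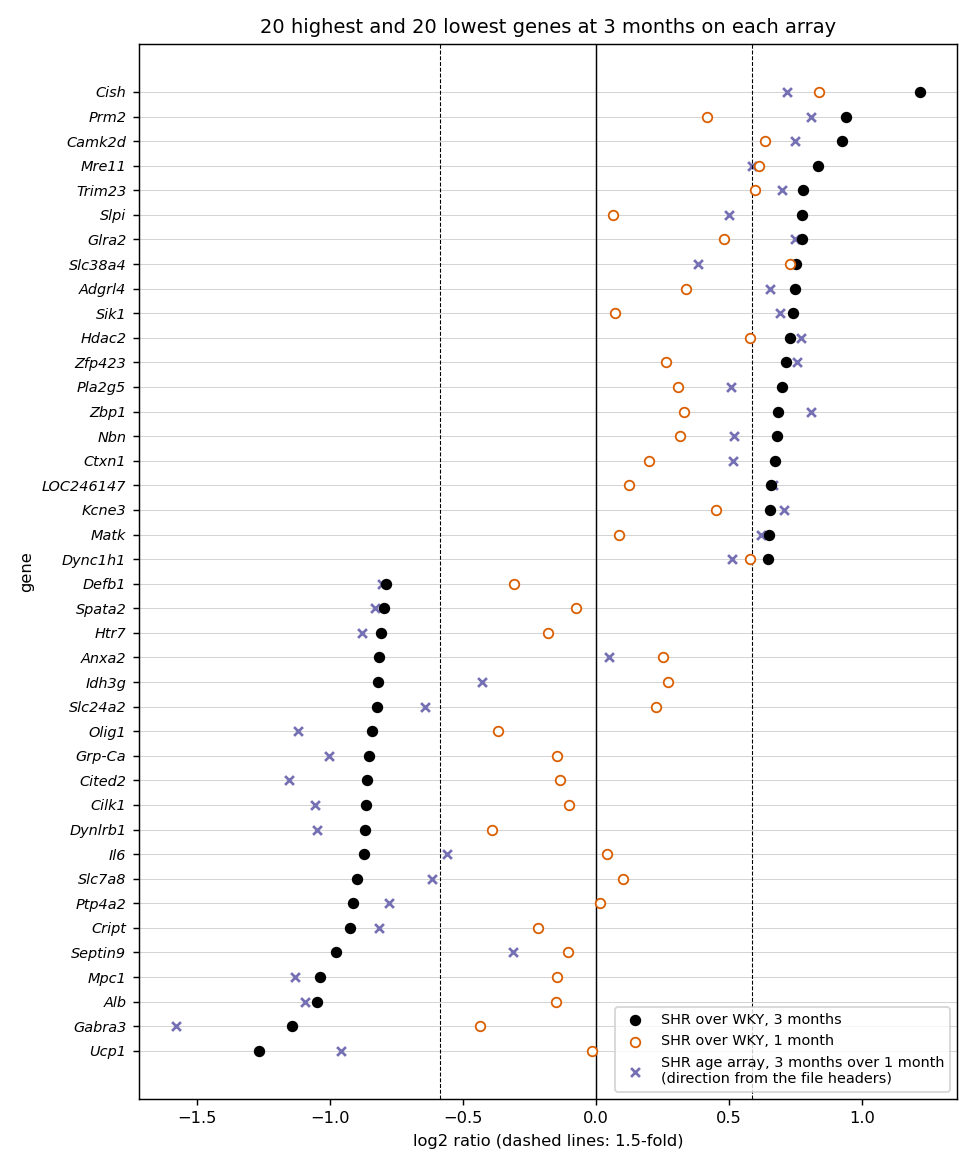
Log2 ratio (horizontal axis) of the 20 highest and 20 lowest genes of the 3-month array (rows) on each of the 3 arrays, 1 value per array. Filled points are SHR over WKY at 3 months, open points SHR over WKY at 1 month, and crosses SHR of 3 months over SHR of 1 month in the direction of the file headers. All 20 highest genes are above 0 at 1 month, between 0.062 and 0.84, and the 20 lowest lie between -0.44 and 0.27 there.

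The 1-month array used SHR and WKY RNA of younger rats and the same dye order. There, 11 of 5610 genes were 1.5-fold higher in SHR (0.196%) and 137 lower (2.44%), 2.64% in all. The 42 genes higher at 3 months had a median of 0.66 at 3 months and 0.34 at 1 month, and 6 of them were past 1.5-fold at both ages. The 108 lower genes that were not dim had a median of -0.71 at 3 months and -0.18 at 1 month (107 measured), with 2 past 1.5-fold at both ages. The 91 dim lower genes had -0.78 at 3 months and -0.81 at 1 month, with 62 past 1.5-fold at both. The members were chosen at 3 months, so a smaller ratio elsewhere is given as a value and not as a change with age, which was not tested. The array of both SHR ages shares the 3-month SHR source with the strain array, so the ratios of these arrays are not independent. On that array, with SHR of 3 months over SHR of 1 month as the headers give it, 116 of 5616 genes were higher (2.07%) and 305 lower (5.43%), 7.5% in all, and the medians were 0.61 for the 42 higher genes, -0.65 for the lower genes that were not dim and -0.75 for the dim ones. The labels put the dyes of that array the other way round, so its direction is not settled. Turned the other way, 305 genes would be higher and 116 lower, and each median would have the other sign.

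Finally, 20 genes were present in the WKY channel only, 0 in the SHR channel only and 11 in neither. The bounds that these allow are small, and for most of the 20, Cit with 0.88-fold among them, they give no direction. Taking as the SHR limit the higher of the lowest level of a present probe and the probe's own level, the gastric lipase Lipf was at least 1.18-fold lower in SHR, Csnk2b at least 1.08-fold, Zp3 at least 1.05-fold and Bmf at least 1.03-fold.

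The counts of genes 1.5-fold apart depended on the processing. With median centring, which leaves the trend with intensity in place, 765 genes were higher and 336 lower in SHR, and 27 of the 42 and 147 of the 199 reported genes were among them. With loess in each subgrid 45 were higher and 147 lower, and 30 and 129 of these were shared.

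**Figure D5:**
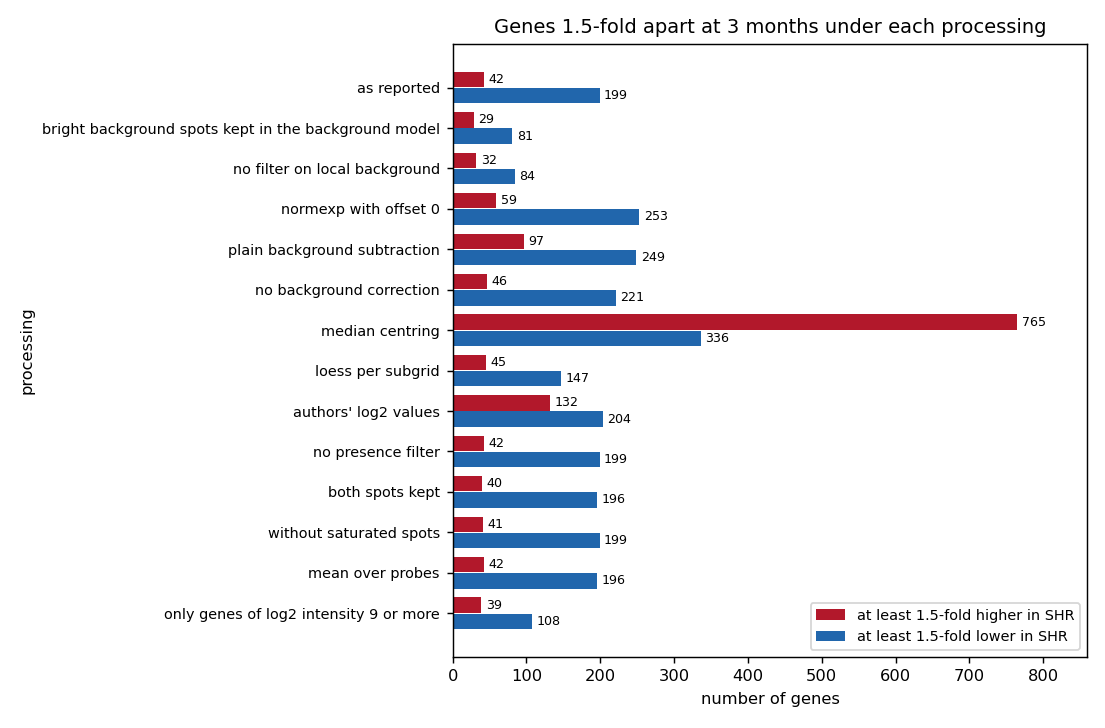
Number of genes (horizontal axis, from 0) that were 1.5-fold higher (red) or lower (blue) in SHR at 3 months under each way of processing (rows), from the same 1 array. The reported counts are 42 and 199; median centring gives 765 and 336, and keeping bright-background spots in the background model gives 29 and 81.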

How the data were processed

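Total RNA from frozen livers was extracted with Trizol, checked on a gel, and 10 µg were copied into dye-labelled cDNA, per the labels' protocols. The deposited scanner file gives, per the file headers, the mean raw intensity of every spot in both channels beside its local background (mean and SD). The authors' log2 values stand in a separate deposited table, with no stated scale, centring or direction. Set against the scanner values they ran as SHR over WKY, and they served as an alternative. The quantification software and the probe sequences are not given in the sources used here.

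Spots with local background above 2 times the channel median were left out, background was corrected with normexp (offset 50), and log2 ratios were normalized by global loess (span 0.3) without empty spots, in limma 3.58.1 and R 4.3.3. A spot was present when it exceeded local background by 2 SD in both channels. Ratios were averaged over the 2 spots of a probe, and the brightest probe stood for each of 36 genes that had several. Symbols were updated through a RefSeq table which matched 2728 probes by accession, 1050 by symbol and 521 by synonym. The file's own symbol was kept for 156 probes, and 1235 have none here. Tables and plots used Python 3.11.15, pandas 2.3.3, numpy 2.4.6 and matplotlib 3.10.9. Promoters are RefSeq's, build GRCr8.

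With 1 array, genes at least 1.5-fold or 2-fold apart were counted with no p-value. Named genes were the 20 highest and 20 lowest with a symbol, both spots kept within 0.5 of each other and a log2 intensity of 9 or more, 6 dim genes at each end, 4 bounds, and the 3 highest and 3 lowest members of each of 56 lists. Some genes within this rule or the lists are not reported here. Further list members were named after their values were seen. Lists, rule and members were chosen with earlier results of these data known. In simulated data of 5219 probes for this comparison, a true 2-fold difference came back as a median log2 ratio of 0.95 when higher and -0.99 when lower, while a true 1.5-fold difference (log2 0.585) passed the 1.5-fold threshold for 26.7% of genes when higher and 38.6% when lower. The simulated noise was set below the spot SD of this array, and each spot kept its own measured background. Dye preference of a probe and spread between rats were not simulated, so the recovery does not cover them. Intensity of 1 array limits the precision, and 12 alternatives were run.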

Additional observations from a re-analysis of the deposited data

Results flagged for a closer look

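For 6 named genes that were 1.5-fold lower in SHR at 3 months, the 1-month array gave the other sign by more than 2 times its spot SD. The difference between the ages was not tested, and each value rests on 1 array. Slc24a2 was -0.82 at 3 months and 0.23 at 1 month. Idh3g was -0.82 and 0.27, and Anxa2 was -0.82 and 0.25. Ep300 and Msra were both -0.73, with 0.23 and 0.24 at 1 month. Hnrnpm was -0.72 and 0.25. For Tmsb10, Ptp4a2, Slc7a8, Il6 and Prkcb the sign also differed, but the 1-month value lay within that error.

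Among the 366 spots marked empty outside the last rows of the subgrids, 52 were brighter in both channels than all 512 empty spots of the last rows. Their median raw intensity was 1219 in SHR and 1751 in WKY. They name no gene and entered no result.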

How the results depend on the processing

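The 1.5-fold counts of 42 higher and 199 lower genes moved with background and normalization. Keeping bright-background spots in the background model gave 81 lower genes, and no filter on local background gave 84. Both gave 4 genes 2-fold lower in place of 20. Plain background subtraction gave 97 higher genes at 1.5-fold, and at 2-fold 13 higher and 62 lower. Median centring gave 765 higher and 336 lower genes, and 212 higher at 2-fold. The authors' log2 values gave 132 higher at 1.5-fold, and 39 higher and 61 lower at 2-fold. At 2-fold, normexp with offset 0 gave 63 lower genes, no background correction 33 and loess per subgrid 13, and requiring both spots left 1 higher gene. In an alternative chosen after seeing the data, genes with a log2 intensity of 9 or more gave 108 lower, and 6 at 2-fold. With median centring, 4 of the 93 named genes that were 1.5-fold apart had the other sign: Slc22a25 at 0.21, Hnrnpm at 0.14, Slc22a2 at 0.064 and Il1r1 at 0.048. The other 89 kept their sign under all alternatives, and 31 of the 93 also stayed past 1.5-fold. Of all 339 named genes, 52 changed sign under at least 1 alternative. None of the 91 dim lower genes stayed 1.5-fold lower when bright-background spots were kept in the background model or not filtered. Of 56 list medians, 28 changed sign under at least 1 alternative. Except for what a stricter filter does by its construction, the cause of these moves was not tested. No paired analysis was possible because each comparison has 1 array, and for the same reason no replicate could be left out. Signal near background limits the dim genes, and the scanner's ceiling limits the brightest.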
